A study of Mus musculus with 122 samples.

Results

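Stra8 and Gal3st1 are genes of the male germ line that were followed here in mouse embryonic stem cells carrying CTCFL, CTCF or a chimera of both. They were chosen by name as testis targets of CTCFL and are 2 of the 52459 genes in the deposited RNA-seq table. RNA was measured in 38 libraries from 4 lines, named CTCFL, CTCF, LCL and CLC after their transgene, and FLAG peaks were listed for 6 transgenes in 32 lists and RAD21 peaks for 4 transgenes in 16 lists. All lines descend from E14Tg2a cells in which both alleles of endogenous Ctcf carry an auxin-inducible degron with eGFP and Tir1 is inserted at Rosa26, and each line is a clone grown from a picked colony in serum with LIF and 2i. The authors' methods give this medium for all clones, while only the LCL and CLC RNA libraries carry 2i in their names. The transgene sits at the Tigre locus on both alleles and carries a 3xFLAG tag and mRuby2 under a doxycycline-inducible promoter. LCL has the N and C termini of CTCFL around the zinc fingers of CTCF, and CLC has the termini of CTCF around the zinc fingers of CTCFL. CLL is CTCFL with the N terminus of CTCF and LLC is CTCFL with the C terminus of CTCF, so that both keep the zinc fingers of CTCFL.

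Cells were untreated (U), given 500 µM IAA, which degrades endogenous CTCF (I), given 1 µg/ml Dox, which induces the transgene (D), or given both (ID). RNA-seq had 3 libraries each of U, I and D and 2 of ID in the CTCFL line, 2 of U and 3 each of I, D and ID in the CTCF line, and 2 of every condition in LCL and CLC. FLAG lists were available in 2 replicates for D and ID of each transgene and, for CTCF and CTCFL in ID, in 2 replicates each of cells treated with RNase A, or with DMSO as a mock, before crosslinking. Treatment lasted 24 h by the labels of the RNA-seq and RAD21 samples and of the FLAG samples of CTCF, CTCFL, LCL and CLC, and 48 h by those of CLL, LLC, RNase and mock, while the treatment protocol states 2 days.

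CTCF is a zinc finger protein of most cells that halts cohesin, the ring complex that contains RAD21, at its sites on DNA. CTCFL, also called BORIS, is its paralog in male germ cells before meiosis, with a similar set of zinc fingers and unrelated termini. Stra8, stimulated by retinoic acid 8, is needed for germ cells to enter meiosis and is induced there by retinoic acid. Gal3st1 is the cerebroside sulfotransferase, which adds sulfate to galactolipids and makes sulfatide in myelin and seminolipid, the main sulfated lipid of male germ cells.

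Stra8 (ENSMUSG00000029848) lies at chr6:34920163-34939344 on the plus strand of GRCm38, with 4 annotated transcript starts in GENCODE vM21, at 34920163, 34920960, 34921004 and 34921010. Gal3st1 (ENSMUSG00000049721) lies at chr11:3983636-3999326 on the plus strand, with starts at 3983636, 3983713 and 3989933. Distances below are given from the first start of each gene.

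The FLAG peaks around both genes, within 10 kb of either gene end, fell into a few recurring regions, and the sequence under the most frequent of them is shown because the transgenes differed in which they occupied. All windows are the plus strand of GRCm38, 50 bases on either side of the median summit. At Stra8 the region 9.58 kb upstream of the first start had its highest peaks in the CTCFL lists, and the region 7.21 kb downstream of that start was listed mainly for transgenes with CTCF zinc fingers. Capitals mark matches to the core of the CTCF motif, CCNNNAGNNGGC on either strand, in which at most 1 of the 7 fixed letters differs.

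Stra8 -9.58 kb, chr6:34910537-34910637: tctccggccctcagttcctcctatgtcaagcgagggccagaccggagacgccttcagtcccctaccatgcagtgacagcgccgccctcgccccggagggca
Stra8 +7.21 kb, chr6:34927319-34927419: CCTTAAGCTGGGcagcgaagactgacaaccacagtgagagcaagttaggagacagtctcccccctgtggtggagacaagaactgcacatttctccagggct

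Between these lies the main site of Stra8, 2.00 kb downstream of the first start and 1.15 kb downstream of the nearest one. It falls in the intron 1 or 2, depending on the transcript, and 300 bases of it are shown because they are an array of short repeats that hold the near core again and again.

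Stra8 main site, chr6:34922048-34922347: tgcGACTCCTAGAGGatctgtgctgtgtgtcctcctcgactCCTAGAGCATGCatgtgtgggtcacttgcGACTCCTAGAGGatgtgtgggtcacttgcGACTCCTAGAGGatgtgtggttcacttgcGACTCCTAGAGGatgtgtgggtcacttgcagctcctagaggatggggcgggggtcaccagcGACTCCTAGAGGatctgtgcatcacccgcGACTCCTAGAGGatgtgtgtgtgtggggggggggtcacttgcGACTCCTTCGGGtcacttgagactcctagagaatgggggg

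At Gal3st1 the region 8.84 kb downstream of the first start, in intron 1 or 2 depending on the transcript, is shown beside the region 18.1 kb downstream of it, which lies beyond the gene's end.

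Gal3st1 +8.84 kb, chr11:3992424-3992524: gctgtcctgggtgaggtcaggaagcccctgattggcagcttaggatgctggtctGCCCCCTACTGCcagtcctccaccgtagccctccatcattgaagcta
Gal3st1 +18.1 kb, chr11:4001715-4001815: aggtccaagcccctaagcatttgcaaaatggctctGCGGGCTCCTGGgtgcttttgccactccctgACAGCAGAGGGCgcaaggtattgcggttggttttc

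The region at Stra8 that every list shares, 1423 bases long, held 20 near matches to the core, 15 of them on the minus strand, or 14.1 per kb. The other regions with peaks in at least 13 lists held between 2.53 and 6.40 near matches per kb. Of the gaps between successive matches on the minus strand, 3 were 29 bases and 2 were 31 bases, and shifted by 29 bases the region equalled itself at 45.3% of its letters, against a median of 25.4% over all shifts examined. At the region 1.12 kb from the first start the best shift, 31 bases, gave 40.2%. The window around the median summit of the main site held 3 near matches. In the CTCFL D lists, 3.44% and 4.48% of all such windows around summits held at least 3, and 41.7% and 47.5% held at least 1. No window at these 5 regions held the exact core, which 15.4% and 19.6% of all CTCFL D windows and 36.2% and 16.6% of all CTCF D windows held, and the window of 100 bases on either side held none either. The map of near matches over the main site shows where they fall relative to the summits.

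**Figure D1:**
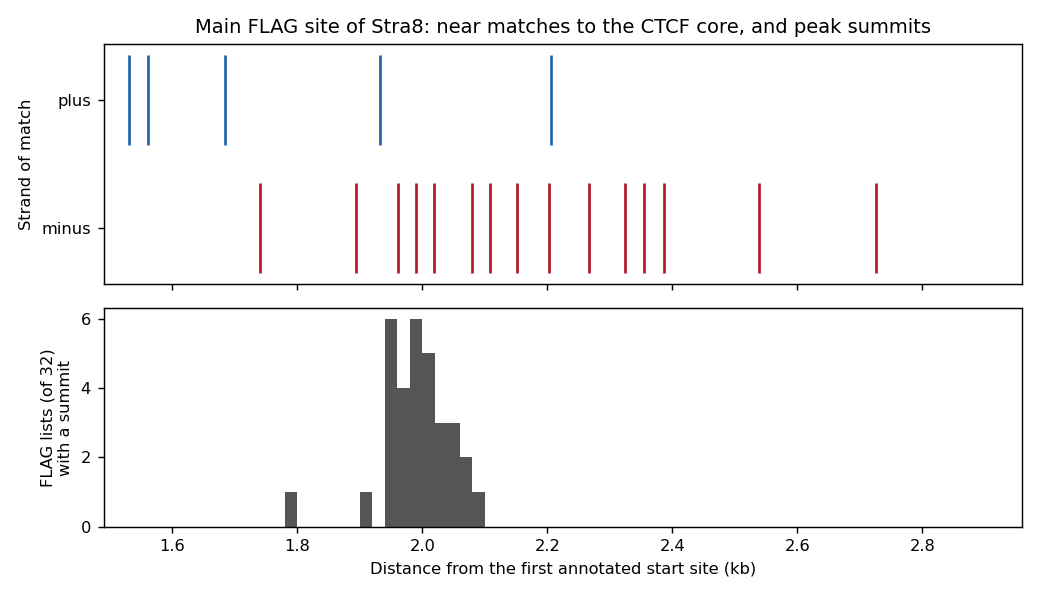
Positions of near matches to the CTCF core in the main FLAG site of Stra8 by strand (upper panel) and number of FLAG lists, of 32, with their highest summit in each bin of 0.02 kb (lower panel), both by distance in kb from the first annotated start. The 15 matches on the minus strand run from 1.74 to 2.73 kb, across the stretch between 1.79 and 2.09 kb that holds all 32 summits.

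The transgenes were checked in the RNA first. In the CTCFL line, Ctcfl went from 208 ± 16.5 normalised read counts untreated to 8244 ± 1005 with Dox (SD, n = 3 each). It also rose with Dox in LCL, from 31.8 ± 6.59 to 400.0 ± 22.8 (SD, n = 2), and in CLC, from 42.04 ± 0.955 to 1810.3 ± 26.8 (SD, n = 2), whose transgenes hold parts of CTCFL. Ctcf in the CTCF line stood at 4701 ± 15.1 untreated (SD, n = 2) and at 3748 ± 172 in the libraries labelled D (SD, n = 3), so that the RNA of these libraries shows no gain of Ctcf. Ctcf was also lower with Dox in LCL, whose transgene holds the zinc fingers of CTCF, from 8569 ± 1047 to 6904 ± 280 (SD, n = 2). In CLC, whose transgene holds the termini, it went from 8389 ± 100 to 10121 ± 58.1 (SD, n = 2). The authors showed transgenic CTCF protein with Dox by western blot and flow cytometry, so the RNA alone does not settle the labels. The CTCF libraries are called libraries labelled D or ID below. Recovered reads numbered 6847072 to 49716771 per library in the 36 libraries where they could be recovered. All 10 embryonic stem cell markers examined were present in all 38 libraries, the lowest being Utf1 at 363 normalised read counts or more. Germ cell markers were present too, with Dazl at 408 or more and Ddx4 at 258 or more, and their summed level in the CTCFL line overlapped between U, at 12361 to 13056, and ID, at 12637 to 13546, and lay below U in D, at 11420.1 to 11937, and above it in I, at 13697 to 14768. The summed stem cell markers of the CTCFL line were highest in U, at 180205 to 196865, lower in D, at 135330.4 to 143925, and in I, at 138310.3 to 140883, and lowest in ID, at 97772 to 103905, with Tdgf1 called lower in D. They were also lower in I than in U in the CTCF line (144090.0 to 161521 against 206586 to 216473), in LCL (215148 to 223568 against 254744 to 258394) and in CLC (226995 to 227951 against 296137 to 298440.1), the conditions in which Stra8 was higher. The Sertoli cell markers summed to 2170.2 to 2500.5 in U and to 3777 to 3796 in ID of the CTCFL line, with Clu the member that rose. Wt1 was listed at 0 in 3 libraries and no other Sertoli or germ cell marker was at 0 in any. The part of these markers in the results was not tested, and in bulk RNA fewer cells of a type and less RNA per cell cannot be told apart.

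Stra8 was expressed in every line without treatment and rose with CTCFL, with loss of CTCF, and most with both. In the CTCFL line it was at 3866, 3985 and 3979 normalised read counts in U and at 11551, 11940 and 11896 in D. Both groups were tight and far apart, and the rise was 2.99-fold (log2 fold change 1.58 ± 0.06 SE, limma adjusted p = 2.32e-13). IAA without Dox gave 9877, 9561 and 11224, a rise of 2.59-fold (1.37 ± 0.06 SE, limma adjusted p = 6.43e-13). With IAA and Dox the values were 18928 and 20243, 4.97 times the U mean and above every other library of the series. A gene was called where the Benjamini-Hochberg adjusted p was under 0.01 and the log2 fold change above 1 in either direction. In D against U, 5.9% of the 16840 genes tested in this line were called, and in I against U 9.58%.

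Against I, ID raised Stra8 by 1.92-fold in the CTCFL line (log2 fold change 0.94 ± 0.07 SE, limma adjusted p = 1.89e-09), short of the fold needed for a call, which 7.83% of genes reached. Without replicate 3 of I, the highest of its group, the log2 fold change was 1.01 and the call was made. The response to Dox was smaller on the log2 scale with IAA than without it, by 0.64 ± 0.10 (SE, limma adjusted p = 9.27e-05), which also stayed under the fold needed for a call. For this difference of responses 2.71% of genes were called. Ctcfl RNA was also lower in ID, at 5514 ± 83.0 (SD, n = 2), than in D, at 8244 ± 1005 (SD, n = 3). Its own difference of responses was -0.52 ± 0.15 (SE, limma adjusted p = 0.0213), not called, and the part of this in Stra8 was not tested.

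IAA raised Stra8 in all 4 lines. In the CTCF line it went from 2310 and 2107 in U to 7083, 7368 and 7630 in I, a 3.33-fold rise (limma adjusted p = 4.55e-09), in a comparison where 10.9% of 16705 genes were called. In CLC it went from 1398 and 1388 to 4183 and 5330, a 3.39-fold rise (limma adjusted p = 2.28e-05), where 12.8% of 15337 genes were called. LCL showed the smallest rise, from 2702 and 2251 to 4953 and 5054 or 2.03-fold (limma adjusted p = 3.20e-07), where 9.58% of 15274 genes were called. The LCL call sat at the fold threshold, and it was not made without replicate 2 of U, at a log2 fold change of 0.89, or with DESeq2 on recovered reads, at 0.99.

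The IAA response of Stra8 in the CTCFL line was not called different from that of any other line. The difference was -0.37 on the log2 scale against the CTCF line (95% interval -0.63 to -0.11, limma adjusted p = 0.103), 0.35 against LCL (0.08 to 0.63, limma adjusted p = 0.0735) and -0.39 against CLC (-0.67 to -0.12, limma adjusted p = 0.0399). All intervals leave out 0 and lie under 1 in size. Of 16480 genes, 0.37%, 2.86% and 3.63% were called in these comparisons, in the same order.

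Dox alone acted on Stra8 differently from line to line. The CTCF libraries labelled D were at 2276, 2251 and 2628, overlapping U (1.08-fold, 95% interval of the log2 fold change -0.06 to 0.28, limma adjusted p = 0.364). In LCL the values in D, 2557 and 2478, lay within those of U (1.02-fold, -0.20 to 0.26, limma adjusted p = 0.883). In CLC both D values, 2000 and 1919, lay above U, by 1.41-fold (log2 fold change 0.49 ± 0.12 SE, limma adjusted p = 0.0381), and this was not called. Calls were few in these comparisons, at 0.455% of genes tested for CTCF, 1.91% for LCL and 0.6% for CLC.

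The larger response of Stra8 to CTCFL was tested as a difference between lines. It exceeded that of the CTCF libraries labelled D by 1.47 ± 0.13 on the log2 scale (SE, limma adjusted p = 1.99e-09), that of LCL by 1.55 ± 0.13 (SE, limma adjusted p = 5.84e-10) and that of CLC by 1.09 ± 0.13 (SE, limma adjusted p = 6.22e-07). Stra8 was called in all 3 comparisons, in which 3.5%, 5.06% and 5.06% of genes were called. The comparisons share the CTCFL libraries. The lines also differed in U, where summed germ layer differentiation markers were at 2509 to 2853 in CTCFL and 2765 to 2993 in CTCF. They were at 704 to 758 in LCL and 826 to 849 in CLC, the lines whose RNA libraries are named with 2i. The part of this was not tested, and in the comparisons with LCL and CLC it cannot be told apart from the transgene.

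In the lines other than CTCFL, Stra8 was lower in ID than in I. The CTCF libraries labelled ID were at 5387, 5152 and 5421, each below the lowest I library, at 0.723 times I (log2 fold change -0.47 ± 0.07 SE, limma adjusted p = 0.000207). LCL was at 3593 and 2836 in ID, 0.638 times I (-0.65 ± 0.11 SE, limma adjusted p = 6.80e-05), and CLC at 3612 and 3229, 0.723 times I (-0.47 ± 0.12 SE, limma adjusted p = 0.0320). None reached the fold needed for a call. Called genes made up 5.06% for CTCF, 8.49% for LCL and 1.95% for CLC. Ordered by mean, Stra8 levels ran from CTCFL ID through CTCFL D, CTCFL I and the I libraries of the CTCF line down to CLC U at 1393 ± 7.03 (SD, n = 2). Of the 15 pairs of neighbours in this order, 5 overlapped, all in the lower part of the order, from LCL I with CLC I downward.

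Gal3st1 was a rarer message that rose with CTCFL and not detectably with IAA in the CTCFL line. It was at 67.3, 65.2 and 51.1 normalised read counts in U and at 151, 135 and 120 in D of that line. The groups did not overlap, and the rise was 2.198-fold (log2 fold change 1.14 ± 0.24 SE, limma adjusted p = 0.000763). In I the values were 57.8, 71.9 and 73.3, overlapping U (1.11-fold, 95% interval of the log2 fold change -0.35 to 0.64, limma adjusted p = 0.666). With IAA and Dox they were 222 and 228, above all other libraries, and 3.31-fold over I (log2 fold change 1.73 ± 0.27 SE, limma adjusted p = 2.27e-05). Both rises with Dox were called. The response with IAA was larger than without it by 0.59 on the log2 scale, with an interval from -0.15 to 1.33 that holds 0 (limma adjusted p = 0.272). The direction of this difference was opposite to that of Stra8.

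The precision for Gal3st1 is limited by its depth, with 32 to 229 recovered reads per library in the CTCFL line, 17 to 70 in the CTCF line, 9 to 47 in LCL and 8 to 20 in CLC. Stra8 had at least 1170 reads in every library where reads were recovered.

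No response of Gal3st1 was called in the other lines, and their intervals are wide. In the CTCF line it was at 20.2 and 30.9 in U, at 17.9, 18.1 and 26.1 in the libraries labelled D, at 40.7, 31.8 and 58.7 in I and at 36.2, 44.6 and 52.97 in those labelled ID. All I values lay above U there, by 1.67-fold (log2 fold change 0.74 ± 0.33 SE, limma adjusted p = 0.0875). In LCL the D values, 29.8 and 27.1, lay above the U values, 10.3 and 21.6, by 1.84-fold with an interval from -0.27 to 2.03 on the log2 scale (limma adjusted p = 0.276). LCL I, at 14.6 and 29.9, and LCL ID, at 27.7 and 14.1, overlapped each other. CLC had the lowest levels, at 7.60 and 9.49 in U, 10.7 and 11.9 in D, 17.0 and 15.95 in I and 12.04 and 18.2 in ID. In CLC I the rise over U was 1.84-fold, with an interval from -0.15 to 1.91 (limma adjusted p = 0.146).

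Tested between lines, the Dox response of Gal3st1 in the CTCFL line exceeded that of the CTCF libraries labelled D by 1.42 ± 0.47 on the log2 scale (SE, limma adjusted p = 0.0292), which was not called. The differences from LCL, 0.25 with an interval from -0.76 to 1.27 (limma adjusted p = 0.763), and from CLC, 0.77 with an interval from -0.25 to 1.79 (limma adjusted p = 0.276), were not called either. These intervals are too wide to separate the response to CTCFL from that to the chimeras. Levels themselves were set apart by line, since the U libraries of the CTCFL line lay above all libraries of the CTCF, LCL and CLC lines but the highest of CTCF I and the highest labelled CTCF ID. Ctcfl RNA without Dox was also higher in the CTCFL line, at 208, than in the other lines, of which the CTCF line was highest at 157 ± 21.8 (SD, n = 2), and the part of this in the levels of Gal3st1 was not tested.

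**Figure D2:**
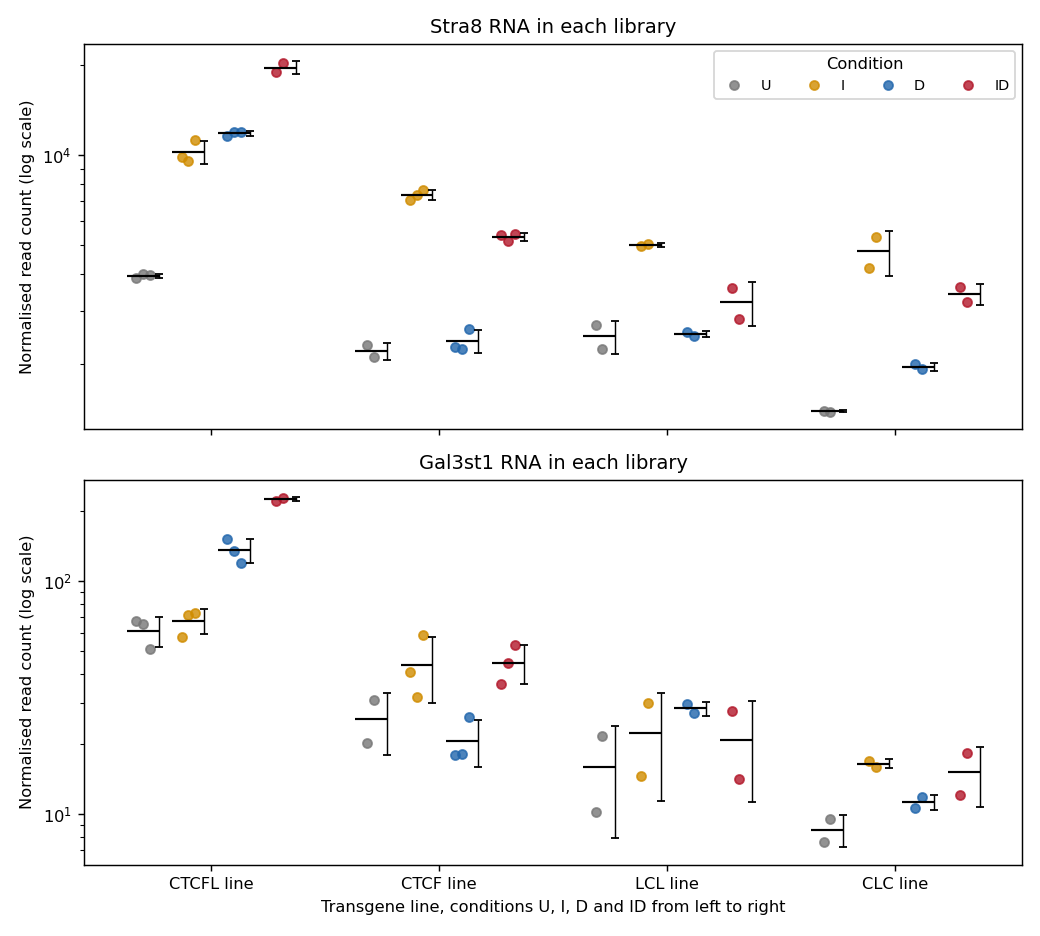
Normalised read counts of Stra8 (upper panel) and Gal3st1 (lower panel) on log axes, 1 point for each of 38 RNA-seq libraries, with the mean (horizontal line) and SD (bar) of each condition. Both genes are highest in CTCFL ID, and Stra8 is above U in I of all 4 lines.

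**Figure D3:**
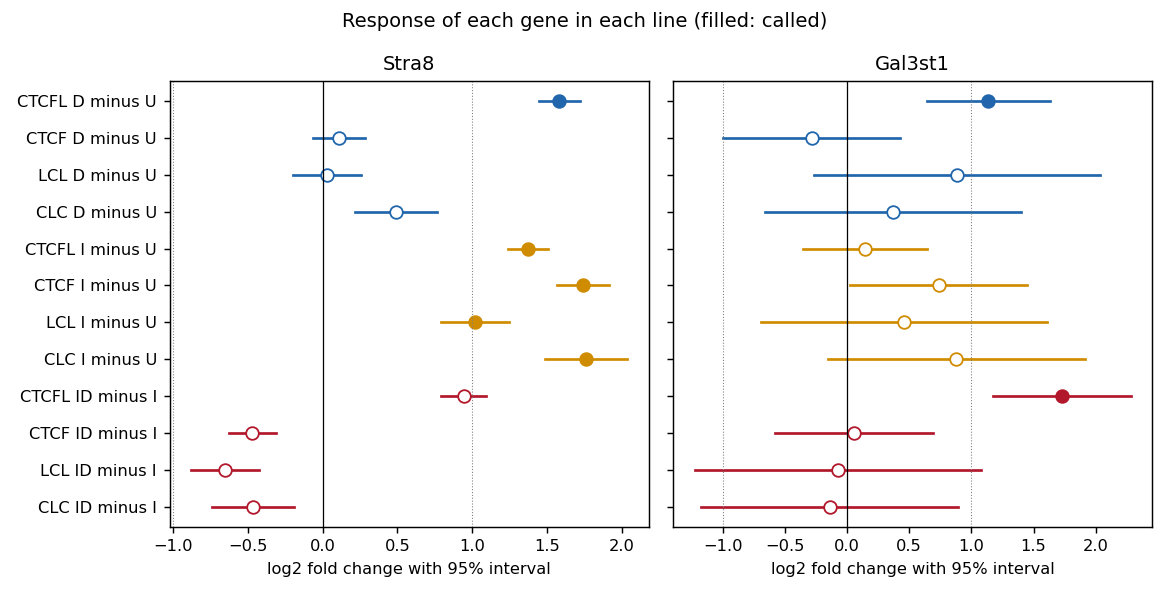
Log2 fold changes of both genes with their 95% intervals from limma for D against U, I against U and ID against I in each line. Filled points were called, with dotted lines at the fold threshold, and only CTCFL gives called Dox responses of Gal3st1.

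The FLAG lists place a peak at the main site of Stra8 in 32 of 32 lists. Among the 20 lists of transgenes with CTCFL zinc fingers, fold enrichment over the local background ran from 5.08 to 11.9 with a median of 8.20, and among the 12 lists with CTCF zinc fingers from 3.60 to 12.7 with a median of 5.30. These medians pool transgenes, treatments and label times. Between CTCF and CTCFL themselves the order depended on the condition, as given below. A percentile of the -log10 q within a peak's own list is given to set lists of different depth side by side. Its median was 99.9 over the CTCFL-finger lists and 86.7 over the CTCF-finger lists. In CTCFL D the peak ranked 12 of 38945 and 2 of 24043, and in CTCFL ID 5 of 31161 and 10 of 29675. CLL D replicate 2 had it at rank 1 of 14603, while CLL D replicate 1, the shortest FLAG list with 2195 peaks, had it at rank 639. LLC D had it at rank 76 of 3737 and 9 of 11454, although only 0.375% and 2.92% of all LLC D windows held the exact core. The authors saw hardly any LLC binding with Dox.

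The rank of this peak among the CTCF lists varied more widely. It stood at percentiles 99.5 and 93.5 for CTCF D, 80.6 and 57.5 for CTCF ID, 59.1 and 28.5 in the mock lists and 99.2 and 80.6 in the RNase lists. LCL had 98.6 and 97.1 in D and 84.4 and 89.1 in ID. In CTCFL the fold enrichments were 5.08 and 6.93 in D, 8.17 and 5.93 in ID, 8.69 and 8.97 in mock and 7.50 and 8.23 in RNase. In CTCF they were 12.7 and 5.95 in D, 9.82 and 8.21 in ID, 4.62 and 3.60 in mock and 5.74 and 5.24 in RNase. The values of CTCF thus lay above those of CTCFL in ID, overlapped them in D and lay below them in mock and RNase. CLC had 9.88 and 6.50 in D and 5.30 and 7.43 in ID. With 2 lists a condition these values were not tested. Reads that map to a single place were kept by the authors, and the part of the repeat array in the height of these peaks was not tested. The IgG samples were not examined here, so a peak in every list cannot be told apart from a background signal at this site.

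The region 9.58 kb upstream of Stra8, which covers the start of its neighbour Wdr91, was listed in both replicates of CTCFL D, CTCFL ID, CLC ID, CLL ID and LCL ID. In CTCFL it had fold enrichments of 6.36 and 7.54 in D and 9.48 and 7.78 in ID, at percentiles of 86.3 to 89.2. It was absent from the lists of CTCF D, CTCF ID and CTCF mock, and of the CTCF lists it was named only in RNase replicate 1, at 3.34. Fold enrichment in LCL ID was 4.51 and 4.98, at percentiles 37.98 and 47.6. The mock lists of CTCFL, which hold 8921 and 14351 peaks, did not name it.

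Conversely, the region 7.21 kb into Stra8, in the same intron as the main site, was listed in 12 of 12 CTCF-finger lists and in 5 of 20 CTCFL-finger lists. The FLAG lists ran from 2195 peaks in CLL D replicate 1 to 55426 in CTCF D replicate 2, and most short lists are of CTCFL-finger transgenes. These counts therefore cannot tell zinc fingers apart from list length. CTCF had fold enrichments of 8.14 and 4.19 in D and 9.90 and 11.6 in ID, and LCL had 3.02 and 3.62 in D and 5.34 and 5.18 in ID. No CTCFL D list named it, and the CTCFL ID lists gave 2.93 and 1.879, with percentiles of 38.6 and 0.529. A further weak region 1.12 kb from the first start was listed in both replicates of CTCFL D, CLC ID and LCL ID, with fold enrichments between 2.21 and 3.18.

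At Gal3st1 the lists differed between transgenes at both main regions, though at 8.84 kb not by zinc fingers alone, since LCL was listed there. The intronic region at 8.84 kb was listed in 16 of 20 CTCFL-finger lists, at a median fold enrichment of 7.51, and in 5 of 12 CTCF-finger lists, at a median of 5.00. CTCFL had 8.47 and 9.80 in D, 12.7 and 9.40 in ID, 5.79 and 6.59 in mock and 7.37 and 5.36 in RNase. None of the 6 lists of CTCF D, CTCF ID and CTCF mock named it, and CTCF RNase replicate 1 did, at 4.27. CLC was listed there in ID, at 5.503 and 7.64, and was not listed there in D. Its D lists are shorter, with 9877 and 13596 peaks against 23916 and 21239 in ID, so absence cannot be read from this. CLL and LLC were listed there in both replicates of ID, and in D in replicate 2 alone, at 8.76 and 6.06. LCL, with CTCF zinc fingers, was also listed in both replicates, at 5.00 and 5.01 in D and 4.82 and 6.81 in ID.

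The region 18.1 kb from the start of Gal3st1, beyond its end, was listed in 12 of 12 CTCF-finger lists, at a median fold enrichment of 7.14. It was listed in 3 of 20 CTCFL-finger lists, at a median of 4.26, and these counts too cannot be told apart from list length. CTCF had 8.87 and 7.26 in D, 12.98 and 11.8 in ID, 7.09 and 7.74 in mock and 4.29 and 4.31 in RNase. CTCFL was listed there in ID alone, at 4.73 and 4.26. A site was counted where peaks of both replicates overlapped by at least 1 bp. By that count Gal3st1 had 1 site for CTCFL with Dox alone and 2 with IAA as well, and 2 for CTCF under either treatment. Stra8 had 3 sites for CTCFL and 2 for CTCF under both treatments. A site within 10 kb of the gene is common, being present at 57.7% of 21938 protein-coding genes in CTCFL D and 65.9% in CTCF D, so the presence of any site does not set these genes apart.

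**Figure D4:**
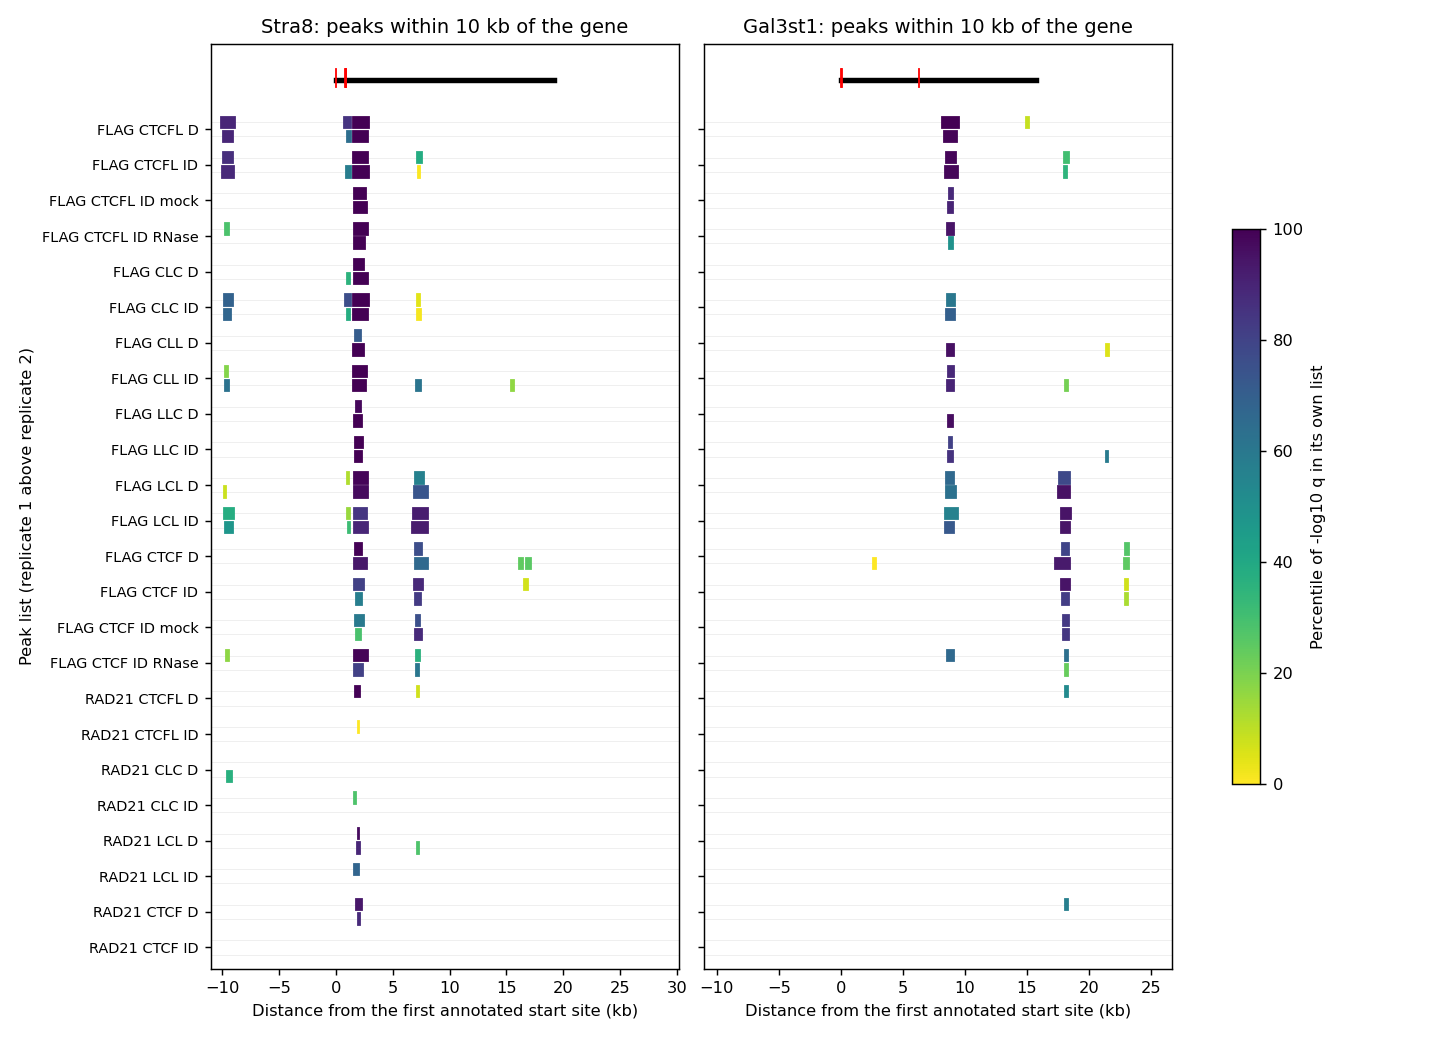
Peaks listed around Stra8 (left) and Gal3st1 (right) by distance in kb from the first annotated start, with replicate 1 drawn above replicate 2 of each list, coloured by the percentile of -log10 q in the list. The black bar is the gene and the red marks are its starts. The peak 2.00 kb into Stra8 is in all 32 FLAG lists, and the peaks at 8.84 and 18.1 kb of Gal3st1 fall mainly in CTCFL-finger and CTCF-finger lists.

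**Figure D5:**
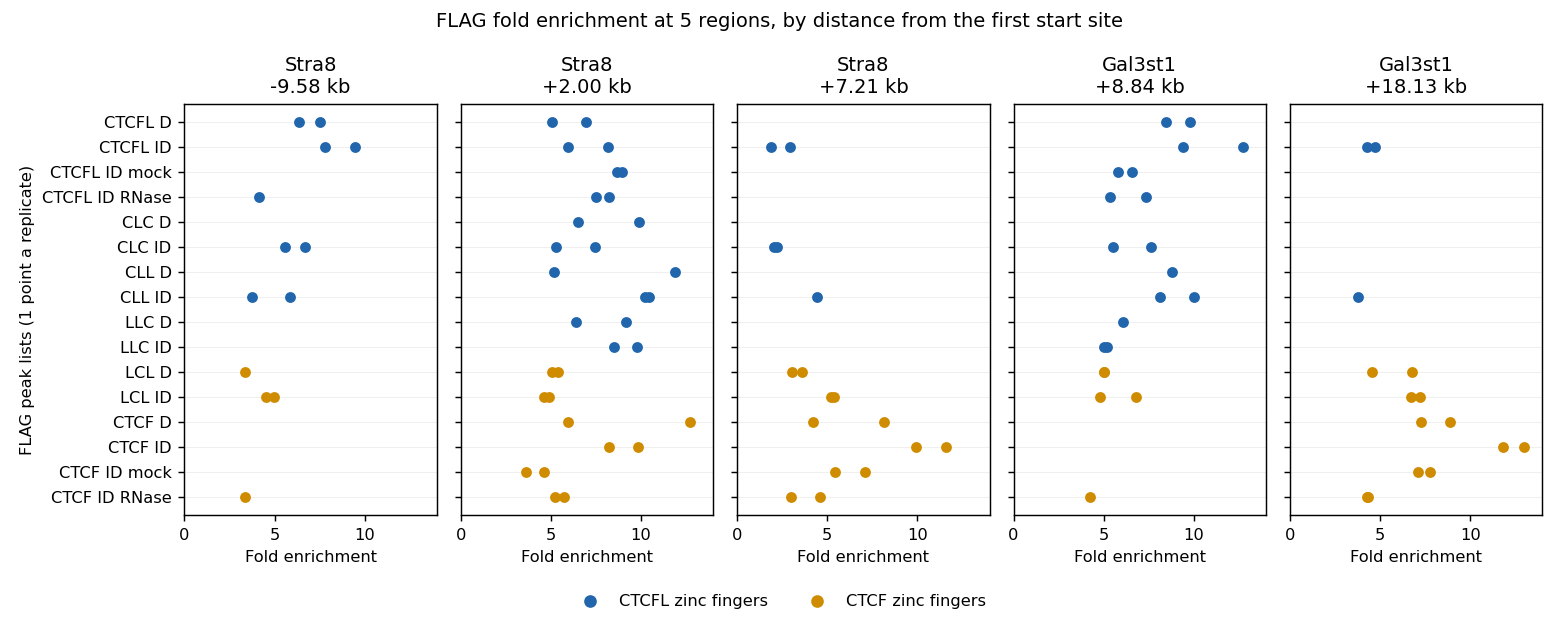
Fold enrichment of the highest FLAG peak in 5 regions for each transgene and condition, 1 point a replicate, blue for transgenes with CTCFL zinc fingers and orange for those with CTCF zinc fingers, and no point where no peak was listed. The Stra8 region at -9.58 kb and the Gal3st1 region at 8.84 kb are highest in CTCFL, and the regions at 7.21 and 18.1 kb in CTCF ID.

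RAD21 was listed at these sites in few lists, and the lists differ widely in length, from 168 peaks in LCL ID replicate 2 to 22773 in CTCF D replicate 1. At the main site of Stra8, RAD21 peaks were listed in both replicates of CTCF D, with fold enrichments of 4.99 and 5.25, and of LCL D, with 5.87 and 4.36. CTCFL D replicate 1 held one at 6.56, at rank 155 of 20475, and replicate 2 of CTCFL D, a list of 239 peaks, held none. In ID the site was named in replicate 1 of CTCFL, at 3.54, of LCL, at 3.76, and of CLC, at 3.96, and in no CTCF list. At the intronic region of Gal3st1 no RAD21 list held a peak, and at its downstream region CTCF D replicate 1 had one at 4.10 and CTCFL D replicate 1 at 4.34. Sites in both replicates were thus 2 of 8 conditions at Stra8 and 0 of 8 at Gal3st1, and 2418 of 21938 protein-coding genes had one in CTCF D, 6.62% in LCL D and 0.602% in CTCFL D. At these list lengths the absence of RAD21 cannot be read from a missing peak.

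The neighbours of both genes were examined over 200 kb on either side. Of 6 neighbours of Stra8 tested in the CTCFL line, Wdr91, which starts at -9287 bases, was called higher in D (log2 fold change 1.01 ± 0.09 SE, limma adjusted p = 1.28e-08) and in ID against I (1.13 ± 0.10 SE, limma adjusted p = 8.04e-09). The call in D sat at the fold threshold and was not made by edgeR (0.995) or DESeq2 (0.998). Its start lies inside the region at -9.58 kb, whose median summit falls within Wdr91. Agbl3, at -139273 bases, was called higher with IAA (1.27 ± 0.34 SE, limma adjusted p = 0.00454), but not by edgeR (adjusted p = 0.0380) or DESeq2 (adjusted p = 0.0265). Over all genes 5.9% were called in D, 9.58% in I and 7.83% in ID against I, against 1 of 6 of these neighbours in each. Of 14 neighbours of Gal3st1, limma, edgeR and DESeq2 called 0 in D, where 8, 8 and 7 had an unadjusted p under 0.05, and the limma log2 fold changes ran from -0.65 to 1.19. With IAA, 2 of the 14, Sec14l3 (2.56 ± 0.47 SE) and Ccdc157 (1.11 ± 0.18 SE), were called higher, and in ID against I the neighbour called was Rnf215, at 151566 bases (1.503 ± 0.21 SE, limma adjusted p = 4.98e-06). These counts are too small to be set apart from the shares over all genes.

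The genes that deliver and read retinoic acid moved in both directions with CTCFL. Of 16 tested in the CTCFL line, 4 were called higher and 2 lower in D, where 5.9% of all genes were called, and their median log2 fold change was 0.36 against -0.00283 over all genes. Cyp26a1, an enzyme that breaks down retinoic acid and is itself induced by it, rose by 3.39 ± 0.52 on the log2 scale (SE). Aldh1a2, which makes retinoic acid, rose by 1.71 ± 0.23 (SE) and Rarg, a receptor, by 1.17 ± 0.08 (SE). Cyp26b1, also a degrading enzyme, fell by 1.19 ± 0.15 and Stra6, a retinol transporter, fell by 1.18 ± 0.22 (SE). In ID against I, 3 were higher and 2 lower, and with IAA alone Cyp26a1 was the gene called, at 1.91 ± 0.52 (SE), though not by edgeR (adjusted p = 0.0164). Over all genes 7.83% and 9.58% were called in these comparisons. In the CTCF libraries labelled D, limma, edgeR and DESeq2 called 0 of 15, with 7, 8 and 8 at an unadjusted p under 0.05. By limma only 0.455% of all genes were called there, so 0 of 15 does not set the list apart.

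Genes of meiotic entry and early meiosis rose in small number. In the CTCFL line 3 of 16 tested were called higher in D and none lower, where 5.9% of all genes were called. These were Tex101, a germ cell surface protein, at a log2 fold change of 2.02 ± 0.16 (SE), Mei1 at 1.35 ± 0.28 (SE) and Sycp2, of the synaptonemal complex, at 1.03 ± 0.17 (SE). All 3 were also called in ID against I, at 1.86, 1.21 and 1.46, with 7.83% of all genes called, but Mei1 was not called there by edgeR (adjusted p = 0.0320) or DESeq2 (adjusted p = 0.0357). With IAA, Tex101 rose by 1.60 ± 0.16 (SE) and Smc1b, a meiotic cohesin subunit, fell by 1.095 ± 0.09 (SE). In LCL the list went down in ID against I, with 10 of 14 tested called lower and none higher and a median of -1.56 against 0.00387 over all genes, where 8.49% of all genes were called and Stra8 was at -0.65. Of the 6 germ cell markers 3 were called lower, with a median of -1.04. Ddx4, Dazl, Mael and Sycp3 are on both lists, so this is in large part the same observation. The part of these markers in it was not tested. Repressors of germline genes, such as Max and E2f6, gave 0 calls of 14 by limma, edgeR or DESeq2 in the CTCFL line. This held in D and I against U and in ID against I, with 4, 6 and 9 at an unadjusted limma p under 0.05. Over all genes limma called 5.9%, 9.58% and 7.83% in these comparisons, so 0 of 14 does not set the list apart.

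For Gal3st1 the enzymes of the galactolipid pathway were taken as the list. Of 18 tested in the CTCFL line, 2 were called higher in D and none lower, where 5.9% of all genes were called. A count this small cannot be set apart from that share. Fa2h, which hydroxylates its fatty acid, rose by 2.21 ± 0.26 on the log2 scale (SE, limma adjusted p = 1.22e-06), and Ugt8a, which adds the galactose, by 1.17 ± 0.23 (SE, limma adjusted p = 0.000416). In ID against I, Fa2h rose by 1.38 ± 0.29 (SE) and Slc35b2, which carries the sulfate donor into the Golgi, by 1.80 ± 0.13 (SE), while Gal3st3, a related sulfotransferase, fell by 1.60 ± 0.42 (SE). With edgeR and DESeq2 only Slc35b2 of these was called (adjusted p of 0.0263 and 0.0220 for Fa2h, and of 0.0487 and 0.0284 for Gal3st3). With IAA alone Gal3st3 was called higher, by 1.39 ± 0.38 (SE), and Ugt8a fell by 1.06 ± 0.23 and Sumf1, which activates sulfatases, fell by 1.01 ± 0.15 (SE). The call of Ugt8a with IAA was not made by edgeR (-0.77) or DESeq2 (-0.77). Over all genes 7.83% were called in ID against I and 9.58% with IAA. The median of the list in D was -0.04, near that of all genes.

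The 5 genes most like Stra8 over the 16 group means of log2(value + 1) were H2-D1 (Pearson r = 0.959), Sgsm2, Tepp, Apobr and H2-Q10 (r = 0.942), and those most like Gal3st1 were Mx1 (r = 0.953), Tarsl2, Hebp2, Lonrf3 and Lacc1 (r = 0.942). Stra8 and Gal3st1 correlated with each other at r = 0.884 over the same 16 means, which share clones and libraries.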

How the data were processed

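RNA was measured in 38 libraries of 4 lines. The authors aligned directional polyA reads to GRCm38/mm10 with STAR, and the deposited signal values are gene counts over a size factor for each library, given to 2 decimals. Which program counted the reads is not given clearly in the sources used here (the submitters' processing notes name HTSeq, Trim Galore 0.4.4, Bowtie2, SAMtools 1.3 and deepTools). Whole reads were recovered in 36 of 38 libraries, where 100% of the values up to 500 reads fell within 0.1 of a whole multiple of the library's step. The other 2, CTCFL I replicate 2 and CTCFL ID replicate 2, had steps of 0.998 and 1.01, too near 1 for the rule used, and stayed out of the count tests. Peaks were called by the authors with MACS for each replicate at a q of 0.05, narrow for FLAG and broad for RAD21, from uniquely mapped reads without duplicates. Their fold enrichment and -log10 q are used as deposited, and the ChIP depth is unknown. Where a peak had several summits, that of the highest -log10 q was kept. Hi-C and IgG samples were not used here.

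The log2(value + 1) was analysed by limma 3.58.1 (eBayes with trend, R 4.3.3), with a model for each line over U, I, D and ID and a model of all 4 lines for differences between lines. Genes with a mean under 10 were left out, and p-values were adjusted over all genes tested. Fold changes on this scale understate those of low genes. The labels do not say that libraries came from separate cultures, so p-values measure only the spread between libraries. The limma fit was tested on simulated data for D against U of the CTCFL line only. Annotation came from GENCODE vM21 and sequence from the RefSeq copy of GRCm38.

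Both genes and all lists were chosen with earlier results of these data known. Named were both genes, Ctcf and Ctcfl as a check of labels, called neighbours that start within 200 kb and have a mean of at least 10, the 5 most correlated genes, and at most 6 genes of each list called in the CTCFL line, of which 1 is not reported here by name. Alternatives were a pseudocount of 5, no filter, TMM factors, a joint model of the lines, a replicate block, count tests of the recovered reads with edgeR 4.0.16 and DESeq2 1.42.0, and the omission of each library in turn. For peaks they were a -log10 q of at least 5, an extension of 3 kb in place of 10 kb, either replicate alone, an overlap of 50% and a motif window of 100 bp on either side. The core with at most 1 letter different was added after the data were seen.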

Additional observations from a re-analysis of the deposited data

Results flagged for a closer look

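The Dox response of Stra8 differed between lines and between backgrounds by tests of the difference itself. It was larger in the CTCFL line than in the CTCF libraries labelled D by 1.47 on the log2 scale, than in LCL by 1.55 and than in CLC by 1.09, in comparisons that share the CTCFL libraries. For LCL and CLC the transgene cannot be told apart from the other differences between these sets of libraries. The Dox response also differed with IAA. Within the CTCFL line it was smaller on the log2 scale with IAA than without it, with a difference of -0.64 (limma adjusted p = 9.27e-05). ID still held the highest level of the series. Ctcfl RNA was lower in ID of this line, at 5514, than in D, at 8244, and the part of this was not tested. No group had 4 or more libraries, so single libraries were not screened for outlying values.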

How the results depend on the processing

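Of 498 alternative values of the 38 RNA results, 483 kept their direction and their side of the call. The call for Stra8 with IAA in LCL was lost with DESeq2 (0.99), and leaving out single libraries gave 0.89 to 1.15. ID against I of Stra8 in the CTCFL line ranged from 0.89 to 1.01 and was called in 1 of these, without replicate 3 of I. The 12 reversals, all of uncalled values and all from leaving out a library, were for Gal3st1 in LCL for ID against I (-0.57 to 0.42, with 0.39 and 0.42 reversed) and I against U (-0.0435 to 0.96), in the CTCF line for ID against I (-0.15 to 0.29, with -0.08 also reversed) and D against U (-0.58 to 0.0102), in CLC for ID against I (-0.42 to 0.14), in the differences of CTCFL from LCL with Dox (-0.25 to 0.76) and with IAA (-0.82 to 0.19, with 0.18 also reversed), and for Stra8 with Dox in LCL (-0.10 to 0.16). The cause was not tested. A lone library left in a group was assumed to vary like the others. DESeq2 was not run for differences between responses.

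Same-numbered libraries did not deviate together (r from -0.297 to 0.162), so the numbers do not pair them. With the number as a replicate block 0 of 38 calls changed (Gal3st1 with Dox in the CTCFL line 1.14, limma adjusted p = 0.00154, against 0.000185 to 0.00467 over the other settings that leave out no group). The block lowered the called genes from 76 to 28 for D of the CTCF line, and in CLC from 92 to 22 for D and from 299 to 164 for ID against I. In CLC D, 42 were called without a filter, 341 with all lines in a joint model and 258 with DESeq2. In CLC ID against I, 620 and 483 were called with the latter 2, and in LCL D 461 against 291 in the joint model.

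RAD21 sites at Stra8 numbered 2 over the conditions, 0 with a -log10 q of at least 5, 0 with an overlap of 50%, 7 with replicate 1 alone and 4 with replicate 2 alone. At Gal3st1 they numbered 0, and 2 and 1 with replicate 1 or 2 alone. FLAG sites went from 32 at Stra8 to between 27 and 39, and from 19 at Gal3st1 to between 17 and 25. FLAG summits with the core within 50 bp numbered 1 at each gene, and 48 and 36 with 1 letter allowed to differ. Gal3st1 is limited by its reads, and peak comparisons by list lengths.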
